A study of Mus musculus with 4 samples.

Results

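The genes of polyamine synthesis, antizyme control and polyamine breakdown were examined in 3T3-L1 mouse cells treated with the antipsychotic risperidone. The members were the rows of the deposited expression table whose symbol was Odc1, Amd1, Srm, Sms, Oaz1, Oaz2, Azin1, Sat1 or Smox, which gave 9 of 16051 genes. All 9 were among the 10243 genes whose mean level reached 1 FPKM (fragments per kilobase of transcript, scaled to the mapped reads of the library), the genes that were tested. The 3T3-L1 cells, a line of embryonic origin from NIH SWISS mice that can form adipocytes, received 100 µM risperidone or the vehicle DMSO for 48 h, and 2 libraries were sequenced per treatment. The cells are described by the authors as differentiated. The sample labels call the DMSO libraries untreated, and the extraction label speaks of retina. Each library was made from the RNA of 3 cultures pooled after extraction, so the p-values below measure the spread between pooled libraries and not between single cultures.

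Polyamines (putrescine, spermidine and spermine) are small positively charged molecules that bind RNA and DNA and are needed for cell growth and for the differentiation of 3T3-L1 cells. Ornithine decarboxylase (Odc1) makes putrescine, Amd1 decarboxylates S-adenosylmethionine to supply aminopropyl groups, and the synthases Srm and Sms add these groups to form spermidine and then spermine. Antizymes (Oaz1, Oaz2) bind ornithine decarboxylase, send it to the proteasome and lower polyamine uptake, the antizyme inhibitor Azin1 binds antizymes in its place, and Sat1 and Smox break polyamines down. Much of this control is exerted on translation and protein stability, which RNA sequencing does not measure.

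The libraries held 15883712 to 16374119 estimated counts, and a count of 0 allowed up to 3 counts, or 0.183 to 0.189 CPM. Of the 12 adipocyte markers examined, 4 reached a mean of 1 FPKM (Lpl, Fabp4, Plin4 and Pparg), with DMSO means of 242 FPKM for Lpl, 149 FPKM for Fabp4 and 44.5 FPKM for Plin4. Of the others, Adipoq, Lep, Slc2a4, Cidec and Retn, which mark mature adipocytes, had 0 to 2 counts in every library. Cebpa and Cfd had 0 to 5 counts, and Plin1 had 9 and 14 counts with DMSO and 1 and 1 with risperidone. The list thus spoke both for and against the label of adipocytes, and the cells are called 3T3-L1 cells here. The summed level of the adipocyte list was 422 and 475 FPKM with DMSO and 287 and 303 FPKM with risperidone, and that of 6 preadipocyte and fibroblast markers was 1593 and 1552 FPKM with DMSO and 1761 and 1759 FPKM with risperidone. The latter list moved in both directions, with Col1a1, Dlk1 and Thy1 called higher, Col1a2 and Col3a1 called lower and Pdgfra not called. These sums were not formed in TPM, the deposited scale on which every library has the same sum. The higher sum of the latter list is thus stated for the FPKM scale only. Its most expressed genes moved in opposite directions in TPM too. The means there went from 771 with DMSO to 1300 with risperidone for Col1a1, and from 2080 to 1590 for Col1a2. Retina markers summed to 0.62 to 1.15 FPKM. The list of 18 kidney markers summed to 2.69 and 2.03 FPKM with DMSO, 2.87 FPKM in risperidone replicate 1 and 206 FPKM in risperidone replicate 2, where all 18 were above 0. Results are therefore also given without risperidone replicate 2, and the part that shifts in these marker lists have in the results was otherwise not tested. In bulk samples such as these, fewer cells of a type and less RNA per cell cannot be told apart.

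Compared with DMSO, Odc1, Srm, Azin1, Sat1 and Smox were higher with risperidone and Amd1, Oaz1 and Oaz2 were lower, while Sms did not pass the test. Thus 5 of 9 genes were higher and 3 of 9 were lower at an adjusted p under 0.05 (edgeR's quasi-likelihood test, two-sided, Benjamini-Hochberg adjustment over the 10243 genes). Of all tested genes, 32.1% were called higher and 32.2% were called lower, so the share of polyamine genes lower was near the background, and 9 genes are too few to call the share higher particular to them. Of the calls in the whole table, 49.9% were higher genes, against 37.9% when only the library size was used for scaling and 22.5% for TPM. The FPKM of the treatments did not overlap for 8 of the 9 genes, against 82.2% of all tested genes. The median log2 fold change of the 9 genes was 0.24, and that of all tested genes was 0. Without risperidone replicate 2, 5 of the genes were again called higher and 3 were called lower.

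**Figure D1:**
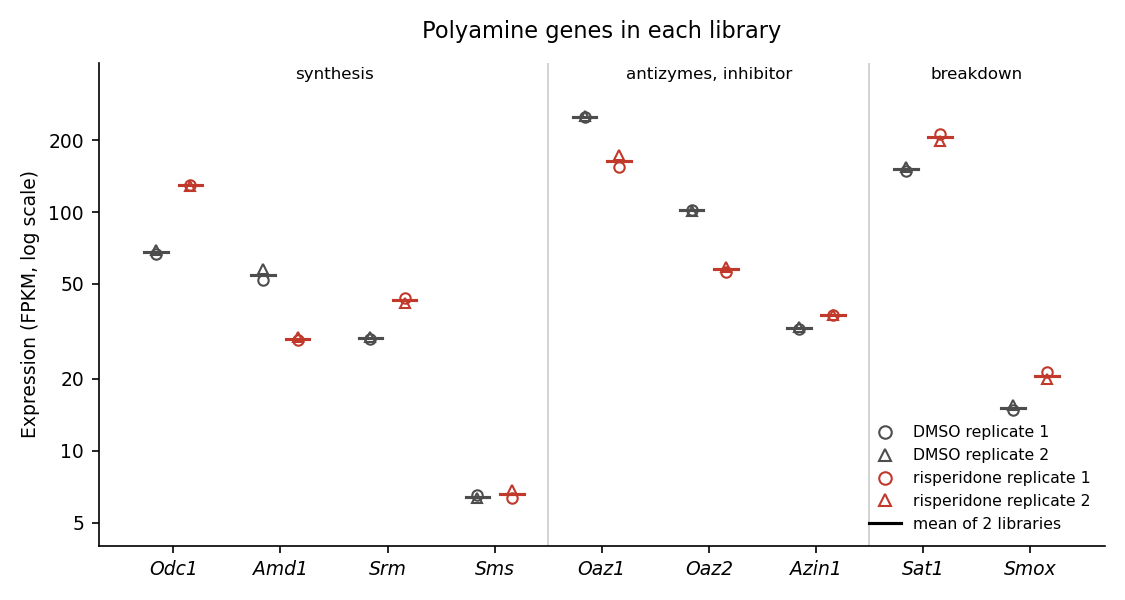
Expression of the 9 polyamine genes in FPKM on a log scale, with 1 symbol per library (circles for replicate 1, triangles for replicate 2, grey for DMSO and red for risperidone) and a line at the mean of each treatment. The libraries of the treatments stand apart for every gene but Sms, with Odc1 moving from 68.3 to 129 FPKM and Oaz1 from 251 to 163 FPKM.

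Among the synthesis enzymes, Odc1 showed the largest increase of the 9 genes. This gene (NCBI Gene 18263) lies on chromosome 12 at 17544808 to 17551502 of GRCm38.p6, plus strand, and encodes the enzyme that turns ornithine into putrescine. Its level was 67.0 and 69.6 FPKM in the DMSO libraries and 129.9 and 129 FPKM in the risperidone libraries. Both risperidone libraries were far above both DMSO libraries, and the libraries of each treatment lay close together (68.3 ± 1.86 and 129 ± 0.82 FPKM, SD, n = 2). On the log2 scale the change was 1.02 ± 0.0466 (SE, 2.03-fold, 95% interval 0.92 to 1.12, adjusted p = 4.36e-08, edgeR). In size this change stood at the 93.7th percentile of the absolute log2 fold changes of all tested genes.

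Amd1 moved the other way. Amd1 (NCBI Gene 11702, chromosome 10 at 40287458 to 40302188, minus strand) encodes S-adenosylmethionine decarboxylase. The level was 51.8 and 57.5 FPKM with DMSO and 29.1 and 29.8 FPKM with risperidone, a log2 change of -0.80 ± 0.0567 (SE, 0.576-fold, adjusted p = 6.89e-07, edgeR). The DMSO libraries differed from each other by more than counting error, with counts of 2605 and 2806 (exact binomial test, p = 0.000119, adjusted p = 0.00107 over 18 tests), and both were well above the risperidone libraries. Amd2, a copy of Amd1 elsewhere on chromosome 10 (35708691 to 35711891, minus strand), had 1.09 and 0.94 FPKM with DMSO and 0.43 and 0.48 FPKM with risperidone, and with a mean under 1 FPKM it was not tested. The estimated counts of Amd1 were not whole in 4 of 4 libraries, as happens when reads are divided between similar genes. The sums of the counts of both copies were whole (2660 and 2852 with DMSO, 1475 and 1491 with risperidone), and 1.45% to 2.05% of them were assigned to Amd2. The number of reads that match both copies is not given, so the values of the single copies are uncertain, while the sum was lower with risperidone in both libraries.

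The spermidine synthase gene Srm (NCBI Gene 20810, chromosome 4 at 148591513 to 148594619, plus strand) rose from 29.2 and 29.9 FPKM in the DMSO libraries to 43.8 and 41.7 FPKM in the risperidone libraries. The log2 change was 0.63 ± 0.061 (SE, 1.55-fold, adjusted p = 6.34e-06, edgeR), and the gap between treatments exceeded the distance within either. The spermine synthase gene Sms (NCBI Gene 20603, chromosome X at 157443851 to 157492287, minus strand), which acts on the product of Srm, was the least expressed of the 9 genes. It had 6.51 and 6.32 FPKM with DMSO and 6.31 and 6.84 FPKM with risperidone, and these values overlapped. The log2 difference of 0.13 had a 95% interval of -0.048 to 0.312 (adjusted p = 0.177, edgeR), so an increase of the size seen for Srm lay outside the interval. The counts of Sms were not whole in 3 of 4 libraries, as estimated counting gives where reads also match other loci.

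The summed level of the 4 synthesis enzymes was 155 and 163 FPKM with DMSO and 209 and 207 FPKM with risperidone, with Odc1 and Srm higher and Amd1 lower. As Odc1 and Amd1 supply the 2 substrates of the synthases, their ratio was followed within each library, where the scaling of the library cancels. The Amd1 to Odc1 ratio of FPKM was 0.774 and 0.826 with DMSO and 0.224 and 0.232 with risperidone. The mean log2 ratio fell by 1.81, far more than the distance between libraries of a treatment (SD of the log2 ratio 0.0668 and 0.0351, n = 2 each). The Sms to Srm ratio was 0.223 and 0.212 with DMSO and 0.144 and 0.164 with risperidone, a log2 difference of -0.50.

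**Figure D2:**
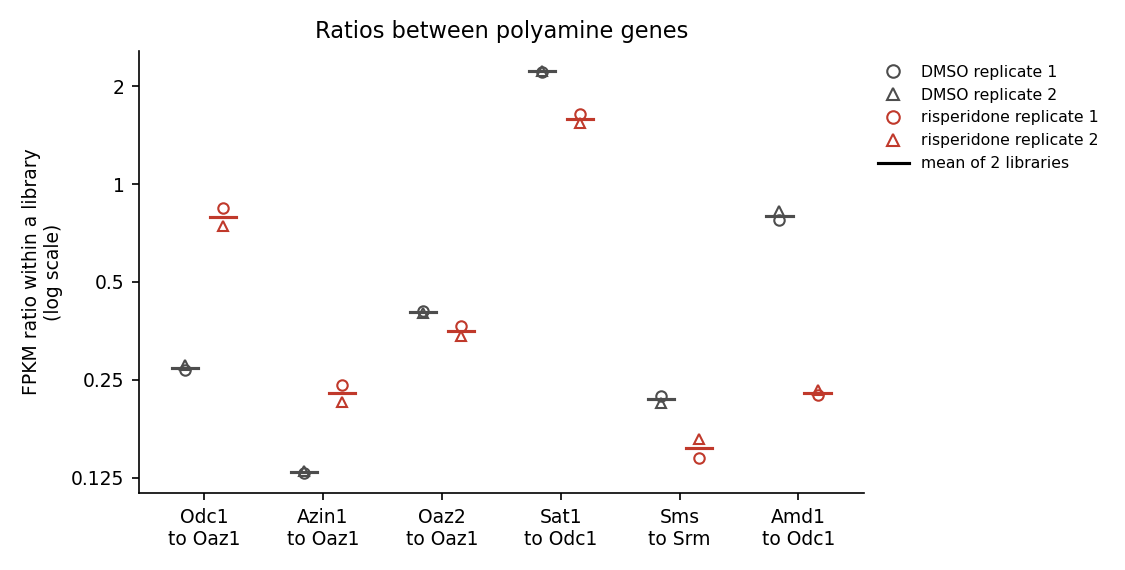
Ratios of FPKM between pairs of polyamine genes within each library, on a log scale, with symbols as in the plot of levels and a line at the mean of each treatment. The treatments do not overlap for any of the 6 ratios, and the Amd1 to Odc1 and Odc1 to Oaz1 ratios are the farthest apart. No share over other gene pairs was formed. For single genes, the FPKM of the treatments did not overlap in 82.2% of all tested genes.

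Both antizyme genes fell with risperidone. Antizymes are made by a programmed +1 frameshift, in which the ribosome skips 1 base at the end of a short first reading frame, at a rate that rises with the polyamine level. The sites of Oaz1 and Oaz2 are shown because they are the element through which polyamines act on these transcripts. They were read from GENCODE M21 (GRCm38) at chr10:80828265-80828325 for Oaz1 and chr9:65686242-65686302 for Oaz2, both on the plus strand and both in coding exons. The skipped bases, at 80828295 and 65686272, are left out by the annotation, so each run holds 60 bases, and the capitals mark the last codon before and the first codon after the skipped base.
Oaz1: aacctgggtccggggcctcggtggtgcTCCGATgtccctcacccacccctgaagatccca
Oaz2: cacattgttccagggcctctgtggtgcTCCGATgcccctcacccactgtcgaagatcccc
The codons in capitals were the same in both genes, and 48 of the 60 bases were identical. The skipped base follows codon 68 of Oaz1 and codon 32 of Oaz2 in the transcripts used (Oaz1-207 and Oaz2-206). The libraries count transcripts and do not show how often this frameshift occurred.

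Oaz1 (NCBI Gene 18245, chromosome 10 at 80826656 to 80829290, plus strand) was the most expressed of the 9 genes with DMSO, at 250.5 and 251 FPKM. With risperidone it had 154 and 173 FPKM, and both libraries were far below both DMSO libraries. The log2 change was -0.52 ± 0.0567 (SE, 0.698-fold, adjusted p = 1.55e-05, edgeR). The risperidone libraries, with counts of 2356 and 2625, differed from each other by more than counting error (exact binomial test, p = 9.14e-06, adjusted p = 0.000165). Without risperidone replicate 2 the log2 fold change was -0.60, and without risperidone replicate 1 it was -0.44, both past the threshold. An exon of Oaz1 overlaps the microRNA gene Mir1982 on the same strand.

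Oaz2 (NCBI Gene 18247, chromosome 9 at 65676548 to 65690300, plus strand), the second widely expressed antizyme, fell more evenly. The levels were 102 and 101 FPKM with DMSO and 56.3 and 58.8 FPKM with risperidone, a log2 change of -0.72 ± 0.047 (SE, 0.607-fold, adjusted p = 3.65e-07, edgeR). The Oaz2 to Oaz1 ratio was 0.408 and 0.401 with DMSO and 0.366 and 0.34 with risperidone, so the treatments did not overlap, although the log2 difference of -0.20 was small. Azin1 (NCBI Gene 54375, chromosome 15 at 38487430 to 38519294, minus strand), which resembles ornithine decarboxylase but has no enzyme activity and frees it from antizyme, rose slightly. It had 32.3 and 33.01 FPKM with DMSO and 36.9 and 37.1 FPKM with risperidone (log2 change 0.24 ± 0.0452 SE, 1.18-fold, adjusted p = 0.000723, edgeR). On the TPM scale, where the median of all tested genes moved to -0.224, Azin1 was no longer called (0.037, adjusted p = 0.581, limma) and stood 0.26 above that median. Exons of Azin1 also overlap Gm49077 on the opposite strand, and reads of the 2 genes cannot be told apart unless strand was used in counting, which is not given in the sources used here.

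The antizymes and Azin1 together had 385 FPKM in both DMSO libraries and 247 and 269 FPKM with risperidone. The transcript levels of the enzyme and of the inhibitor were also set against that of Oaz1 within each library. The Odc1 to Oaz1 ratio was 0.267 and 0.277 with DMSO and 0.845 and 0.743 with risperidone, 2.91-fold higher, and the Azin1 to Oaz1 ratio was 0.129 and 0.131 with DMSO and 0.24 and 0.214 with risperidone, 1.74-fold higher. With 2 libraries against 2, an exact permutation test (two-sided) cannot go below p = 0.333. All 6 ratios gave this value, before and after adjustment over the 6, so none passed a test, and each ratio is given as measured values.

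Both breakdown genes rose. Sat1 (NCBI Gene 20229, chromosome X at 155213126 to 155216449, minus strand) encodes spermidine/spermine acetyltransferase, the rate-limiting enzyme of polyamine breakdown and export. It had 148 and 155 FPKM with DMSO and 213 and 198 FPKM with risperidone, a log2 change of 0.52 ± 0.0523 (SE, 1.44-fold, adjusted p = 8.35e-06, edgeR). Its risperidone counts of 3595 and 3309 differed by slightly more than counting error (exact binomial test, p = 0.00727, adjusted p = 0.0436), and the lower of them was still above both DMSO libraries. Smox (NCBI Gene 228608, chromosome 2 at 131491858 to 131525183, plus strand), the oxidase that turns spermine back into spermidine, had 14.9 and 15.5 FPKM with DMSO and 21.3 and 19.9 FPKM with risperidone (log2 change 0.55 ± 0.0634 SE, 1.47-fold, adjusted p = 2.25e-05, edgeR). Sat1 and Smox rose by a similar factor, and for both the log2 fold change was larger without risperidone replicate 2 (0.58 and 0.61). The Sat1 to Odc1 ratio was 2.21 and 2.23 with DMSO and 1.64 and 1.54 with risperidone, so Sat1 was above Odc1 in every library but by less with risperidone.

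**Figure D3:**
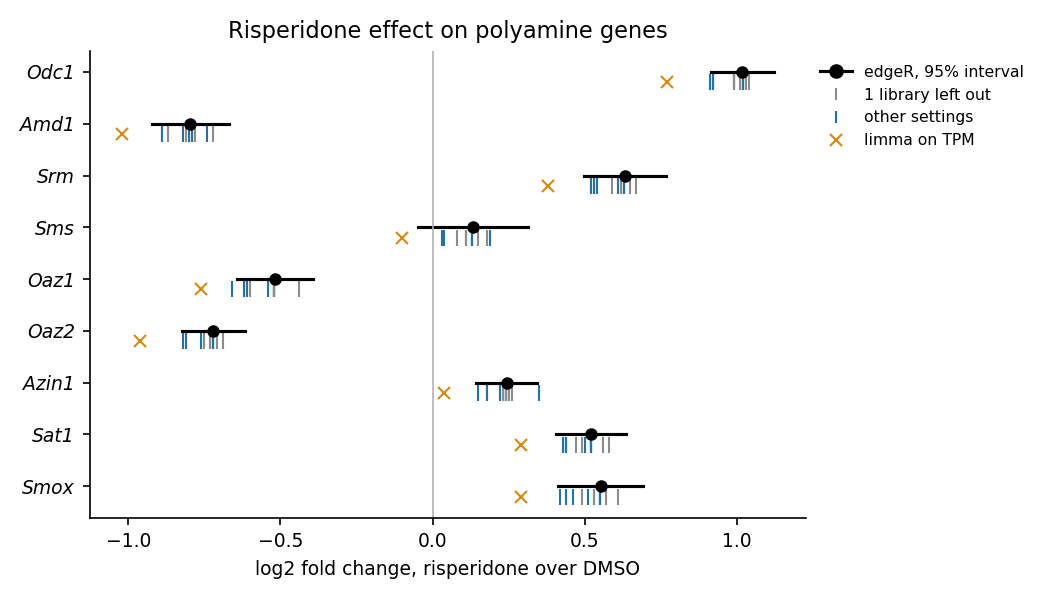
Log2 fold change of each polyamine gene, risperidone over DMSO, with its 95% interval (black) and, under it, the values with 1 library left out (grey), with other scalings, filters and tools (blue) and with limma on log2(TPM + 1) (orange crosses). The direction was the same under the 14 alternatives shown for all genes but Sms, which ran from -0.099 to 0.19.

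The order of the levels changed with treatment. In FPKM, which takes account of transcript length, the DMSO libraries ran Oaz1, Sat1, Oaz2, Odc1, Amd1, Azin1, Srm, Smox and Sms from highest to lowest, and the risperidone libraries ran Sat1, Oaz1, Odc1, Oaz2, Srm, Azin1, Amd1, Smox and Sms. No neighbours in either order overlapped between their libraries. Amd1 went from the fifth place to the seventh, Odc1 passed Oaz2, and Srm passed Azin1 and Amd1. In FPKM the sum of all 9 genes moved little, from 702 and 719 FPKM with DMSO to 690 and 694 FPKM with risperidone. The sum was not formed in TPM, where the median log2 fold change of all tested genes was -0.224. The statement thus holds for the FPKM scale only.

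The other genes of polyamine metabolism were examined in 6 lists, 41 genes in all, of which 34 were in the table and 26 were tested. Of these, 8 were higher, 6 were lower and 12 were not called, with a median log2 fold change of 0, against 32.1% higher and 32.2% lower of all tested genes. Each list held 2 to 8 tested genes, too few for its count to be read against these shares as a result about the list. The counts depended on scaling, with 5 higher and 10 lower when only library size was used and 5 higher and 16 lower for TPM. Without control replicate 2, 5 were higher and 6 were lower.

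**Figure D4:**
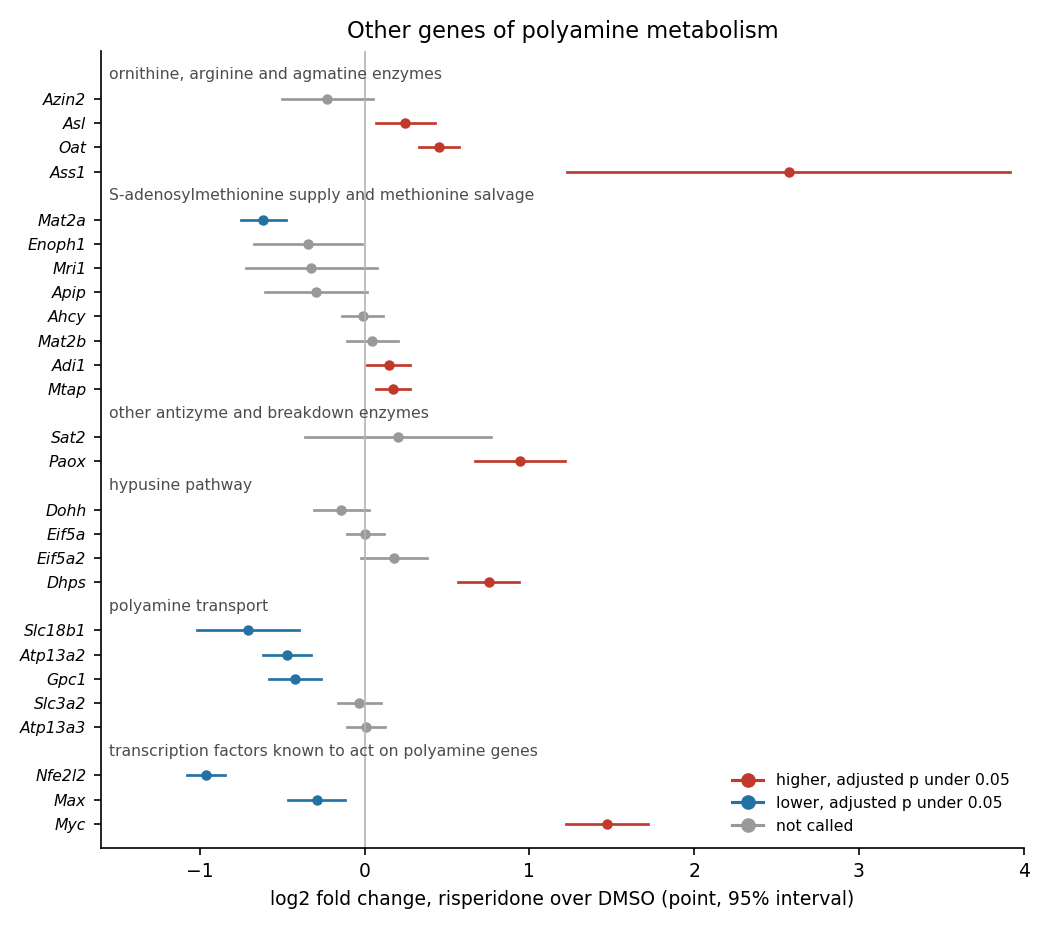
Log2 fold change, risperidone over DMSO, of the 26 other polyamine metabolism genes tested, grouped by list, with 95% intervals from edgeR (red for higher, blue for lower, grey for not called). Ass1 has the widest interval, 1.23 to 3.92, and Nfe2l2 and Myc lie on opposite sides of 0.

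Among the enzymes of ornithine, arginine and agmatine, 3 of 4 tested genes were called higher and none lower. Oat, the mitochondrial aminotransferase that links ornithine with glutamate and proline, had 36.6 and 36.9 FPKM with DMSO and 47.8 and 46.2 FPKM with risperidone (log2 fold change 0.45, adjusted p = 3.44e-05, edgeR). Ass1, which makes the precursor of arginine, had 2.20 and 2.27 FPKM with DMSO, 3.65 FPKM in risperidone replicate 1 and 21.3 FPKM in risperidone replicate 2. The increase of Ass1 thus lay mostly in the library that also held the kidney markers, and the log2 change of 2.57 ± 0.609 (SE, adjusted p = 0.00339, edgeR) was 0.81 without that library (adjusted p = 0.00366). Gatm, a kidney enzyme that uses arginine, had 1 and 1 counts with DMSO, 2 in risperidone replicate 1 and 80 in risperidone replicate 2, and was not tested. The part that kidney transcripts have in these values was not tested. Asl, the next enzyme after Ass1, had a log2 fold change of 0.25 (adjusted p = 0.021, edgeR) but was called in only 5 of 14 alternatives (adjusted p 0.0147 to 0.86 over them) and stood at -0.015 on the TPM scale. Azin2, the second antizyme inhibitor, had 8.60 and 7.53 FPKM with DMSO and 6.14 and 6.12 FPKM with risperidone (log2 fold change -0.23, adjusted p = 0.132, edgeR). It was called lower in 4 of 14 alternatives, among them limma on log2(FPKM + 1) (adjusted p = 0.00839). Without control replicate 1 the log2 fold change of Azin2 was -0.12.

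For the supply of S-adenosylmethionine and the salvage of methionine, 2 of 8 tested genes were higher and 1 was lower. Mat2a, which makes S-adenosylmethionine, the substrate of Amd1, had 132 and 133 FPKM with DMSO and 75.0 and 87.2 FPKM with risperidone, a log2 change of -0.61 ± 0.0627 (SE, adjusted p = 9.6e-06, edgeR). Mat2a therefore fell together with Amd1, and its risperidone libraries lay far below its DMSO libraries. Mtap, which recycles the by-product of the synthases, and Adi1, a later salvage enzyme, were called higher by small amounts (log2 fold change 0.17, adjusted p = 0.00693, and 0.15, adjusted p = 0.0479, edgeR), but of 14 alternatives Mtap was called in 8 (adjusted p 0.00524 to 0.29) and Adi1 in 1 (RLE scaling, adjusted p 0.0458 to 0.466 over the 14). Leaving out either DMSO library ended the call of Mtap (adjusted p = 0.11 and 0.0946), leaving out any library ended that of Adi1 (adjusted p 0.105 to 0.203), and on the TPM scale both values were below 0 (-0.067 and -0.092).

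Of the other antizyme and breakdown enzymes, 1 of 2 tested genes was called. Paox, the oxidase that acts on the acetylated polyamines made by Sat1, rose from 5.55 and 5.32 FPKM with DMSO to 9.54 and 9.90 FPKM with risperidone (log2 change 0.94 ± 0.124 SE, adjusted p = 6.01e-05, edgeR). Sat2, the other tested gene of this list, had 3.76 and 3.20 FPKM with DMSO and 3.13 and 4.76 FPKM with risperidone. These values overlapped, and Sat2 was not called (log2 fold change 0.20, adjusted p = 0.512, edgeR). Sat1, Paox and Smox were higher in both risperidone libraries than in both DMSO libraries. The FPKM of the treatments did not overlap for 82.2% of all tested genes. Of the hypusine pathway, which uses spermidine to modify the translation factor eIF5A, 1 of 4 tested genes was called. Dhps, the enzyme that transfers the aminobutyl group of spermidine to eIF5A, rose from 11.95 and 12.97 FPKM to 20.1 and 19.9 FPKM (log2 change 0.75 ± 0.0833 SE, adjusted p = 1.69e-05, edgeR). Eif5a itself had 307 and 316 FPKM with DMSO and 299.6 and 283 FPKM with risperidone, and after scaling its log2 fold change was 0.003 with a 95% interval of -0.109 to 0.115 (adjusted p = 0.968, edgeR). Eif5a was called lower on the TPM scale (-0.24, adjusted p = 0.00115, limma) and with offsets for length and GC content (-0.10, adjusted p = 0.0339, edgeR).

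Among polyamine transport genes, 3 of 5 tested genes were lower and none was higher, beside 32.2% and 32.1% of all tested genes, and 5 genes do not allow a statement about transport genes as a group. Slc18b1, a vesicular polyamine transporter, went from 4.69 and 4.38 FPKM with DMSO to 2.71 and 2.45 FPKM with risperidone (log2 fold change -0.71, adjusted p = 0.00114, edgeR). Atp13a2, the lysosomal polyamine exporter, went from 10.1 and 10.4 FPKM to 6.52 and 7.39 FPKM (-0.47, adjusted p = 9.03e-05, edgeR), and Gpc1, a heparan sulfate proteoglycan linked to polyamine uptake, went from 15.1 and 13.4 FPKM to 9.51 and 10.3 FPKM (-0.42, adjusted p = 0.000377, edgeR). In each of the 3 genes both risperidone libraries were below both DMSO libraries. The organic cation exporter Slc47a1, abundant in kidney, had 0 or 1 count in 3 libraries and 100 counts in risperidone replicate 2.

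All 3 tested transcription factors of the list were called. Myc, a known activator of Odc1, had 6.07 and 6.23 FPKM with DMSO and 17.9 and 14.0 FPKM with risperidone (log2 change 1.47 ± 0.113 SE, 2.77-fold, adjusted p = 1.18e-06, edgeR). Its partner Max was lower by a small amount (log2 fold change -0.29, adjusted p = 0.00695, edgeR), and without risperidone replicate 2 the value was -0.18 (adjusted p = 0.02). Nfe2l2, the stress-response factor NRF2, known to act on Sat1, went from 74.1 and 74.2 FPKM to 34.0 and 37.1 FPKM (log2 change -0.96 ± 0.0521 SE, adjusted p = 1.2e-07, edgeR). Myc and Odc1 were thus higher, and Nfe2l2 lower while Sat1 was higher, in both risperidone libraries. The binding of these factors was not measured.

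As Myc and Max bind the E-box CACGTG and, less strongly, the variant CACGCG, both were searched on both strands from 250 bases before to 50 bases after the start sites of RefSeq (GRCm38.p6), where 7 of the 9 genes had an entry. The E-box was found in 1 of these genes (Sms) and in 7.15% of all 32851 promoters, and the variant was found in 3 (Odc1, Oaz1 and Sms) and in 9.27% of all promoters. The matches of the genes did not overlap each other. For Odc1 the RefSeq start used for this window lies downstream of the first base of the gene as annotated, and the matches, with first bases at -180 and -101 of that start, both lie before the gene. The 171 bases of the window that precede the gene in RefSeq and GENCODE M21 (chr12:17544623-17544793, plus strand) are shown as upstream sequence of the gene that rose most, with both matches of the variant in capitals. The E-box of Sms (chrX:157492458-157492503, minus strand, first base of the match at -196) is shown as the match in the gene that was not called.
Odc1: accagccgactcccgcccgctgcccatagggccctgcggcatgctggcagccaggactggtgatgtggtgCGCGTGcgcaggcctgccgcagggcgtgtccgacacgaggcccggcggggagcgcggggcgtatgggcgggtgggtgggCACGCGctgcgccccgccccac
Sms: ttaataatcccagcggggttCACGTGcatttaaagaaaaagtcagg
Introns were not searched, and a match describes letters in this window, not a bound site.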

How the data were processed

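RNA of 3T3-L1 cells, which the study's methods describe as differentiated, was sequenced as 2 libraries with DMSO and 2 with risperidone (MGISEQ-2000), each pooled from 3 cultures. The authors removed adaptor, poly-N and low-quality reads, and deposited an estimated count, an FPKM and a TPM per gene and library. FPKM values were computed by the authors on their DC.TOM platform, TPM values were deposited scaled to the same sum, and the deposited estimated counts (expected counts) were not normalized. The submitters' processing notes list Bowtie2, RSEM, DESeq2 and the build GRCm38.p6. Versions, annotation and strand setting are not given in the sources used here. The authors' mean columns were not used.

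Counts were rounded. Genes whose mean reached 1 FPKM were compared between treatments by the quasi-likelihood F-test of edgeR 4.0.16 in R 4.3.3 (TMM scaling, two-sided, all 4 libraries, no covariate), with Benjamini-Hochberg adjustment over all of these genes and calls at an adjusted p under 0.05. Replicate counts were compared with an exact binomial test on library totals, and ratios with an exact permutation test. Genes named beyond the 9 members were, for each list of related genes, those called, at most 4 a list by size of change, otherwise the gene of highest mean FPKM, with Myc, Amd2, Eif5a and Azin2 in any case. The other genes named with values, Gatm, Slc47a1 and the marker genes, were picked once their values were known. The members and lists were chosen with earlier results of these data known. The alternatives were other filters, RLE and library-size scaling, DESeq2 1.42.0, limma 3.58.1 on log2(FPKM + 1), log2(FPKM + 0.1) and log2(TPM + 1), a replicate term, each library left out, and, chosen after seeing the data, offsets for length and GC content and a crossed replicate term. The crossed term was read only for the counts over all genes and is not among the 14 alternatives given for single genes. The models were tested on simulated data. Positions come from RefSeq and exon overlaps from GENCODE M21. Tables and figures were made with Python 3.11.15, pandas 2.3.3, scipy 1.17.1 and matplotlib 3.10.9.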

Additional observations from a re-analysis of the deposited data

How the results depend on the processing

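Under the 14 alternatives to the edgeR fit, Odc1 (0.77 to 1.04), Amd1 (-1.02 to -0.72), Srm (0.38 to 0.67), Oaz1 (-0.76 to -0.44), Oaz2 (-0.96 to -0.69), Sat1 (0.29 to 0.58) and Smox (0.29 to 0.61) kept their direction and their call (log2 fold changes). Azin1 lost its call only with limma on log2(TPM + 1) (0.037, adjusted p = 0.581), where Sms turned to -0.099 (adjusted p = 0.38). The median of all genes was -0.224 on that scale, and relative to it Azin1 was at 0.26 and Sms at 0.13. On that scale 1536 genes were higher and 5292 were lower, against 3287 and 3303. Ratios taken from counts kept the direction of all 6.

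Of the wider genes, 8 higher became 5 with library size only, with limma on FPKM (both pseudocounts) or TPM, and without a filter, and 5 to 7 with 1 library left out. The 6 lower became 10 with library size only, limma on FPKM or the length and GC offsets (chosen after seeing the data), 16 with TPM, and 6 to 8 with 1 library left out. Eif5a changed sign with library size only (-0.091), limma on FPKM (-0.099 with either pseudocount), TPM (-0.24, adjusted p = 0.00115), a mean of at least 5 FPKM (-0.022), the offsets (-0.10, adjusted p = 0.0339) and with 1 library left out (-0.046 to 0.051). Asl (-0.015), Mtap (-0.067) and Adi1 (-0.092) changed sign with TPM, and over the 14 alternatives Asl kept its call in 5, Mtap in 8 and Adi1 in 1. Asl lost it without control replicate 2 (adjusted p = 0.216) and without risperidone replicate 1 (adjusted p = 0.109). Azin2 passed the threshold with library size only, limma on FPKM and TPM (-0.50 to -0.32), and stood at -0.12 without control replicate 1. Ass1 did not pass the threshold without a filter (2.57, adjusted p = 0.0672). The cause was not tested.

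Whether libraries with the same replicate number were prepared together is not given in the sources used here. The differences between replicates 1 and 2 correlated at -0.157 between treatments over 8052 genes. This value cannot settle the question, as the risperidone difference includes kidney transcripts such as Kap. A replicate block gave 3292 genes higher and 3321 lower. Of the named genes called, the replicate block ended the call of Adi1 alone (0.15, adjusted p = 0.103), which most other alternatives ended as well. The crossed pairing, chosen after seeing the data, gave 3474 and 3519. No value measures the spread between cultures, and changes in protein, enzyme activity or polyamine level were not measured.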
